A study of Mus musculus with 3 samples.

Results

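The genes described here encode digestive enzymes of the pancreas, together with the trypsin inhibitor Spink1. They are the proteases Cela1, Cela2a, Cela3b, Prss2, Ctrb1 and Ctrl, the lipases Pnliprp1, Pnliprp2 and Cel, and Spink1. Members were taken as every probe that the platform annotation names with 1 of these 10 symbols, which gave 13 probes, all of them among the 14122 probes measured on every array. Those 10 genes stand among 9803 genes with such a probe. Each of the 3 arrays, all of mouse RNA, carried liver total RNA in Cyanine-5 against spleen total RNA in Cyanine-3. Both were bought from Clontech and amplified in a single round. Neither the strain, age and sex of the mice nor their number is given in the labels, which name the same pair of products on every array. The spread between arrays may therefore be technical, and p-values measure that spread and not the one between animals. No array had the dyes exchanged, and for each probe an effect of the dye and one of the tissue cannot be told apart.

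Acinar cells of the exocrine pancreas make these enzymes and release them toward the gut. Trypsin, the product of genes such as Prss2, activates the other proteases there, and Spink1 binds trypsin that becomes active too early. The tail of the pancreas lies against the spleen, so pancreatic transcripts in a spleen RNA can be asked about. Liver is the other side of the ratio, so they are read only relative to liver and together with any dye effect. In acinar cells the enzyme genes are switched on together by PTF1, a complex of Ptf1a with an E-box partner and Rbpjl or its relative Rbpj. PTF1 reads a paired site, an E-box (CANNTG) followed by TTTCCC.

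Promoters are shown for 4 members to let that paired site be seen. They are Cela1, with the closest probe means of the genes that have a pair, Ctrb1, whose ratio lay nearest 0, Cel, the lipase nearest 0, and Pnliprp1, the digestive enzyme furthest toward spleen. Each line gives the 250 bases before the gene's start, read 5′ to 3′ on the gene's own strand, from RefSeq on build GRCm38.p6. Capitals mark CANNTG and TTTCCC on either strand. The Cela1 window is chr15:100687921-100688170 on the minus strand, that of Ctrb1 chr8:111691011-111691260 on the minus strand, that of Cel chr2:28563404-28563653 on the minus strand and that of Pnliprp1 chr19:58728637-58728886 on the plus strand.
Cela1: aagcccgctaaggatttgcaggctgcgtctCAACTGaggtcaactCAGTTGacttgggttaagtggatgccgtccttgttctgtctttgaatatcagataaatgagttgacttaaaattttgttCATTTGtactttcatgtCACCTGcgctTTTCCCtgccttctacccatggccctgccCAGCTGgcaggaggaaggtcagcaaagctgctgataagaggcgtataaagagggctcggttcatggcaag
Ctrb1: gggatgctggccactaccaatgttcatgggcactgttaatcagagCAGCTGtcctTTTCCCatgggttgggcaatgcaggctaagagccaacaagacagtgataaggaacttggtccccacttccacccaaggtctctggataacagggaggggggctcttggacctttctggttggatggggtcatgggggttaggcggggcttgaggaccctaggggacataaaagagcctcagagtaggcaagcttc
Cel: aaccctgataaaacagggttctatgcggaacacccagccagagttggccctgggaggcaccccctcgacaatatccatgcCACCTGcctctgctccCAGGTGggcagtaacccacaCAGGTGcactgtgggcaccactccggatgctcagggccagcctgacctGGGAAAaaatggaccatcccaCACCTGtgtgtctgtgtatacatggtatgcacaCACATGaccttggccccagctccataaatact
Pnliprp1: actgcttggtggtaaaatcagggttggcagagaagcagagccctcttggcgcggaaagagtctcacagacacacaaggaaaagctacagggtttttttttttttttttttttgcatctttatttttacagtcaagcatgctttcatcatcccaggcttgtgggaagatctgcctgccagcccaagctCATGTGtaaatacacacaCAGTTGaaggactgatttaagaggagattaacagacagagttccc

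An E-box with TTTCCC at most 20 bases after it, on either strand, was found in 3 of the 9 member promoters that the RefSeq table held, those of Cela1, Ctrb1 and Cel. Of all 32851 promoter windows of this length, 2.03% held such a pair. In Cela1 and Ctrb1 both parts lay 4 bases apart, and in Cel 15 bases apart. CANNTG alone was in all 9 member windows and in 66.2% of all windows. Its form CACCTG, counted on both strands and part of the CANNTG count, was in 7 of the 9 and in 17.2% of all, while TTTCCC was in 5 of the 9 and in 21.9% of all. A match describes the letters only. Prss2 lies on chromosome 6, Cela2a and Cela3b on chromosome 4 and Ctrl on chromosome 8. Pnliprp1 and Pnliprp2 are neighbours on chromosome 19, with no annotated gene between them.

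Values are log2 ratios from the authors' deposited table. They were read with liver on top, so a negative value means a higher level in spleen. The labels do not state this direction. It is likely from the median over liver genes, which was 2.65, 2.70 and 2.66 on arrays 1, 2 and 3, against -1.93, -1.60 and -1.46 over 13 probes of 9 spleen genes. Only 3 probes of 2 liver genes were measured on every array. The liver plasma protein Ahsg read 4.04, 3.45 and 3.80. Hemopexin (Hpx), also a plasma protein of liver, gave the median on probe 5800, while its probe 3213 read -0.37, -0.07 and -0.43. Of the spleen probes, 10 passed the test described below toward spleen and 0 toward liver, among them that of the B-cell receptor chain Cd79b at -1.38, -1.60 and -1.16. Those of Cd3e at 0.13, Coro1a at 0.24 and Ptprc at 0.03, each a mean, did not pass, though other probes of Coro1a and Ptprc did. A probe passed the test where its adjusted p was under 0.05 (limma against a ratio of 0, Benjamini-Hochberg adjustment over all 14122 probes). Since 3 arrays cannot give a two-sided exact sign permutation p below 0.25, no single probe was tested that way. A ratio near 0 arises alike from equal levels in both RNAs and from a signal near background in both, and channel intensities were not used here. In bulk RNA, fewer cells of a type and less RNA per cell cannot be told apart.

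Of the 13 member probes, 1 passed the test toward liver and 9 toward spleen. Over all probes tested, 23.5% passed toward liver and 26.7% toward spleen. The direction of the members was already known when they were chosen, so this count is not independent evidence of it. At 2-fold or more, no member probe passed toward liver and 1 passed toward spleen, that of Spink1, while 8.85% and 9.13% of all probes did so toward liver and toward spleen. The median of the 13 means was -0.40, against 0.02 over all probes, and 24.0% of all probes lay below that member median. On 11 of the 13 probes every array read below 0. In order of the mean ratio, Spink1 stood furthest toward spleen, and its 95% interval from -1.49 to -1.08 did not overlap that of any other member. Among the other probes, each had an interval that overlapped that of its neighbour in this order. Averaged over probes, the 10 genes gave 0 calls toward liver and 7 toward spleen, against 25.3% and 27.4% of all 9803 genes.

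**Figure D1:**
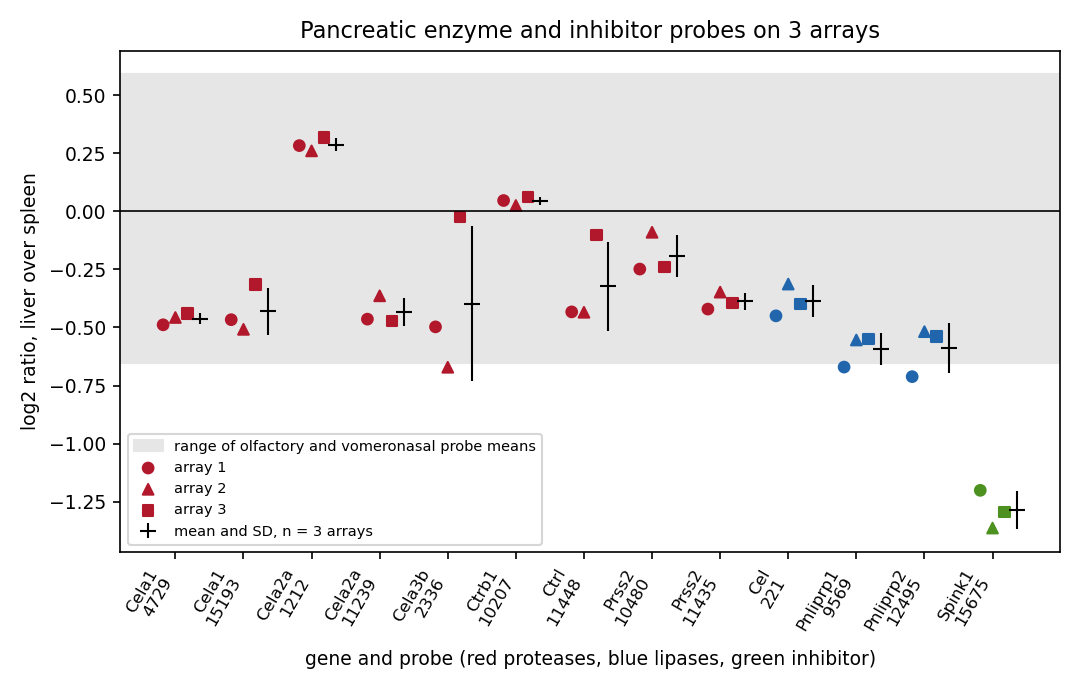
Log2 ratio of liver over spleen (y axis) for each of the 13 member probes (x axis), with 1 point per array and the mean and SD over 3 arrays beside it. The grey band spans the means of 102 olfactory and vomeronasal receptor probes, from -0.65 to 0.59. Spink1 alone lies below the band.

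Among the proteases, both probes of Cela1, an elastase, were higher in spleen. Probe 4729 read -0.49, -0.46 and -0.44 on arrays 1, 2 and 3, and probe 15193 read -0.47, -0.51 and -0.32. All 6 values were below 0, and array 3 had the highest of each probe. The first probe averaged -0.46 ± 0.02 (SD, n = 3), a 1.38-fold ratio (limma adjusted p = 0.00514), and the second -0.43 ± 0.10 (limma adjusted p = 0.00952). Without array 2 the second probe averaged -0.39 and was not past the test (limma adjusted p = 0.0543).

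Cela2a, an elastase that cuts after larger hydrophobic residues, gave opposite signs on its probes. Probe 1212 read 0.28, 0.26 and 0.32, with a mean of 0.29 ± 0.03 toward liver (limma adjusted p = 0.0289). Probe 11239 read -0.46, -0.36 and -0.47, with a mean of -0.43 ± 0.06 toward spleen (limma adjusted p = 0.00740). Every array had the first probe above 0 and the second below it. The liver call of probe 1212 was lost without any 1 array, with limma adjusted p-values of 0.111, 0.0901 and 0.0939 without arrays 1, 2 and 3. Averaged over both probes, the gene stood at -0.074 and did not pass the test (limma adjusted p = 0.431).

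Cela3b, another pancreatic protease of the elastase group, read -0.50, -0.67 and -0.02. Array 3 stood apart near 0, and the mean of -0.40 ± 0.33 did not pass the test (limma adjusted p = 0.0637). Without array 3 the mean was -0.58 and passed (limma adjusted p = 0.0122). It was -0.26 without array 2 (limma adjusted p = 0.250) and -0.35 without array 1 (limma adjusted p = 0.188). The chymotrypsin-like protease Ctrl had the same array apart, with -0.43, -0.43 and -0.10. Its mean of -0.32 ± 0.19 passed toward spleen (limma adjusted p = 0.0467). That call was lost without array 1 at -0.27 (limma adjusted p = 0.181), and without array 2 at -0.27 (limma adjusted p = 0.182).

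For Prss2, a trypsinogen, probe 11435 read -0.42, -0.35 and -0.39. It averaged -0.39 ± 0.04 toward spleen (limma adjusted p = 0.0103), and without array 1 it stood at -0.37 and was not past the test (limma adjusted p = 0.0572). The other Prss2 probe, 10480, read -0.25, -0.09 and -0.24 and did not pass, at -0.19 ± 0.09 (limma adjusted p = 0.107). Trypsinogen genes are a family of close relatives, and sharing of signal between them was not resolved here. Ctrb1, the precursor of chymotrypsin B, read 0.046, 0.025 and 0.061. Its mean of 0.044 ± 0.018 had a 95% interval from -0.15 to 0.24 and did not pass (limma adjusted p = 0.660). All 3 values lay close above 0.

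All 3 lipase probes passed toward spleen. Pnliprp1, a relative of pancreatic lipase with little activity of its own, read -0.67, -0.55 and -0.55, with a mean of -0.59 ± 0.07 (limma adjusted p = 0.00232). Its neighbour Pnliprp2, a galactolipase that in mouse is also made by cytotoxic T cells, read -0.71, -0.52 and -0.54, with a mean of -0.59 ± 0.11 (limma adjusted p = 0.00296). Both had their lowest value on array 1, and their ratios, 1.51-fold for Pnliprp1, were the furthest toward spleen among the digestive enzymes. Cel, the bile salt-stimulated lipase, read -0.45, -0.31 and -0.40. Its mean was -0.39 ± 0.07 (limma adjusted p = 0.0116), and without array 1 it was -0.36 and not past the test (limma adjusted p = 0.0656).

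Spink1 read -1.20, -1.36 and -1.29, all below every value of the other members. Its mean was -1.29 ± 0.08, a 2.44-fold higher level in spleen (limma adjusted p = 0.000143), and 5.77% of all probes lay lower. In mouse this inhibitor is also known from the male accessory glands, so it is not a marker of pancreas alone. Without Spink1 the 12 enzyme probes had a median of -0.39, with 1 past the test toward liver and 8 toward spleen. When each probe was tested against a 1.5-fold change in place of none, no member passed toward liver and 1 toward spleen, again Spink1, while 9.36% and 9.35% of all probes passed toward liver and toward spleen.

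The 3 genes with a pair of probes were set against the 2052 genes that had exactly 2 measured probes. Over these genes the median absolute difference between the probe means was 0.32, and 35.8% of them differed between their probes past the test (limma on the difference, adjusted over all pairs). The means had opposite signs in 33.1% of them. For Cela2a, probe 1212 lay 0.72 above probe 11239, with a 95% interval from 0.44 to 1.00 (limma adjusted p = 0.00598). Of the 2052 genes, 23.2% had probes at least this far apart. The Prss2 probes differed by 0.19, with an interval from -0.08 to 0.47 (limma adjusted p = 0.232), and the Cela1 probes by -0.032 (probe 4729 minus probe 15193), with an interval from -0.31 to 0.25 (limma adjusted p = 0.858). Both differences missed the threshold, which does not show that the probes read alike.

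**Figure D2:**
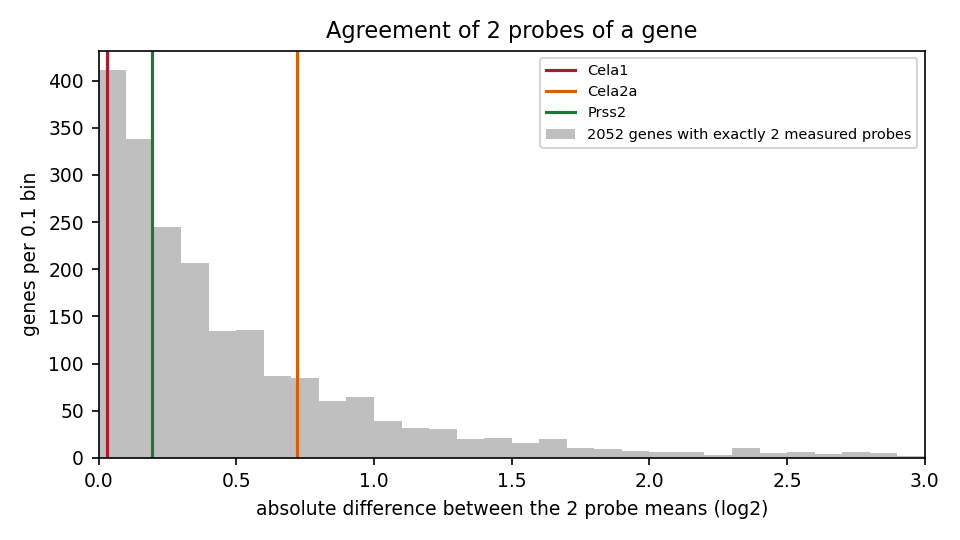
Absolute difference between the 2 probe means of a gene on the log2 scale (x axis) and number of genes per bin of 0.1 (y axis), for 2052 genes, with vertical lines at Cela1, Cela2a and Prss2. Genes beyond 3 are not drawn. Cela2a lies at 0.72, right of the median of 0.32.

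To show what probes of genes silent in most tissues read, the members were set beside 102 probes of 93 olfactory and vomeronasal receptor genes. This set was chosen after the data were seen. Of its probes, 15 passed the test toward liver and 7 toward spleen, none of them at 2-fold or more. The share passing either way was 21.6%, against 50.2% of all probes tested. The receptor set had a median of 0.07, with quartiles of -0.09 and 0.19 and a range from -0.65 to 0.59. Of the 13 member probes, 12 lay within that range and 11 lay below its lower quartile. Of the 102 receptor probes, 7 (6.86%) stood at or below the members' median of -0.40. On the 3 arrays the members' median was -0.46, -0.43 and -0.39, against 0.18, 0.08 and -0.06 for the receptor probes. The receptor median thus lay lowest on array 3, the array on which Cela3b and Ctrl read nearest to 0. Whether a dye effect on dim probes has a part in the members' values was not tested.

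**Figure D3:**
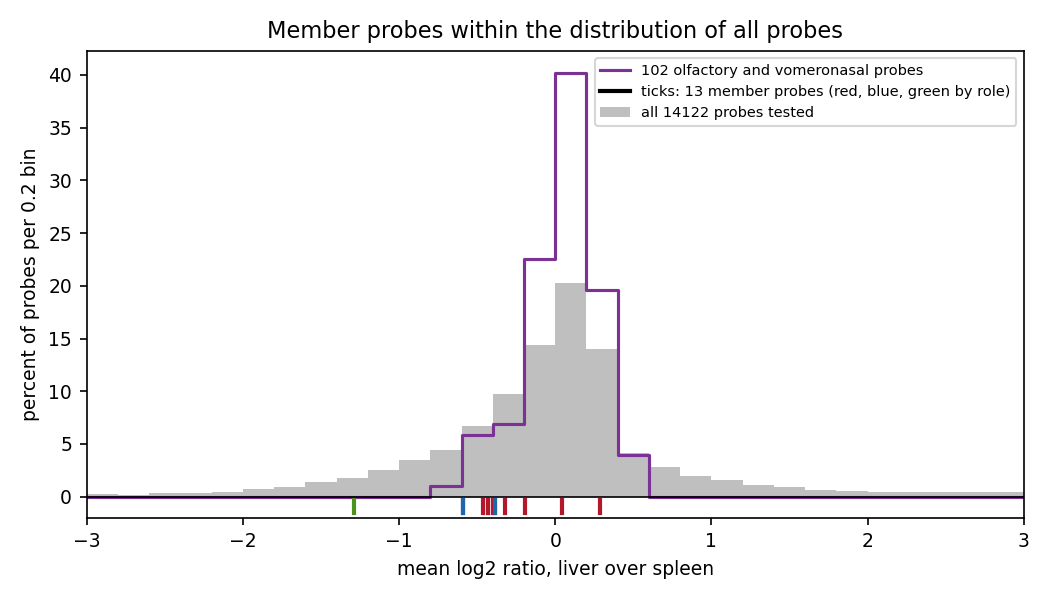
Percent of probes (y axis) per bin of 0.2 in the mean log2 ratio of liver over spleen (x axis) for all 14122 probes in grey and 102 olfactory and vomeronasal receptor probes in purple, with a tick for each member probe coloured red for proteases, blue for lipases and green for Spink1. Probes beyond 3 either way are not drawn. Most ticks lie left of the purple peak and within its spread, and the Spink1 tick lies outside it.

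Other genes of the exocrine pancreas were followed through a list of 57 genes and a list of 10 acinar transcription factors. Together 42 probes of 34 of these genes were measured on every array, and 11 passed toward liver and 11 toward spleen. The share passing either way was 52.4%, close to the 50.2% of all probes tested. The count toward liver was 7 without array 2, and that toward spleen was 7 without array 1. At 2-fold or more, 5 passed toward liver and none toward spleen, against 8.85% and 9.13% of all probes tested. The median of the 42 means was 0.11. The 5 were Aqp8 at 3.59, Gnmt at 3.49, Slc39a5 at 2.67 and Nr5a2 at 3.59, which are also genes of liver, and the antibacterial lectin Reg3g at 1.13, which read 1.97, 1.06 and 0.35 on the 3 arrays and was not past the test without array 2 (limma adjusted p = 0.0927).

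Of the 11 probes past the test toward spleen, all lay short of 2-fold. Those not named below were Niban1 at -0.69, Serpini2 at -0.65 and -0.35, Reg3b at -0.61, Dnase1 at -0.57, Rnase1 at -0.55, Klk1 at -0.53, Gatm at -0.53 and Cckar at -0.41. Another Dnase1 probe stood at 0.22 and another Cckar probe at 0.16, neither past the test. The calls of Dnase1 and Cckar were lost without array 1 and without array 3. That of Serpini2 at -0.35 was lost without any 1 array. Toward liver, Cuzd1 passed at 0.30 and another Slc39a5 probe at 0.36. Cuzd1 did not pass without any 1 array, and that Slc39a5 probe not without array 2 or without array 3. Syncollin (Sycn), a zymogen granule protein, read -0.57, -0.67 and -0.45, with a mean of -0.56 ± 0.11 (limma adjusted p = 0.00350). Gp2, the main glycoprotein of the granule membrane, read -0.61, -0.34 and -0.40 and averaged -0.45 ± 0.14 (limma adjusted p = 0.0107). Both passed toward spleen, Gp2 not without array 1 (limma adjusted p = 0.0576). The amylase gene Amy1 went the other way, with 0.53, 0.58 and 0.44 and a mean of 0.52 ± 0.07 (limma adjusted p = 0.00386). It is the amylase of liver and salivary gland in mouse. Amy2a5, a pancreatic amylase, was listed at an exact 0 on all 3 arrays, which was taken as no measurement. Albumin, abundant in liver, was likewise listed at 0 on 2 arrays and read 6.16 on the other. Colipase (Clps), the cofactor of pancreatic lipase, read -0.47 on array 1 and -0.23 on array 3 and was listed at 0 on array 2.

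The trypsinogen Try5 read -0.03, -0.09 and -0.15, and the acinar lectin Reg1 read -0.27, -0.01 and 0.00. Neither passed the test. Ptf1a read 0.02, -0.30 and -0.04 and averaged -0.10 ± 0.17, with a 95% interval from -0.35 to 0.14 (limma adjusted p = 0.407). Rbpjl, the pancreas-restricted partner in PTF1, read 0.10, 0.17 and 0.05 and averaged 0.11 ± 0.06, with an interval from -0.09 to 0.31 (limma adjusted p = 0.308). The granule-building factor Bhlha15 was at -0.14 ± 0.16 and did not pass (limma adjusted p = 0.261). Over the whole list of acinar factors, 4 of 9 measured probes passed toward liver and 0 toward spleen. Of all probes tested, 23.5% and 26.7% did so. Besides that of Nr5a2, the acinar factor probes past the test were those of Gata6 at 0.42 and of Xbp1, a factor of secretory cells at large, at 0.65 and 0.60. Another Gata6 probe stood at 0.11 and did not pass, and the first was not past the test without array 2. No probe used here carries the symbols Cpa1, Cpb1, Pnlip or Amy2b, and those genes were not analysed here.

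**Figure D4:**
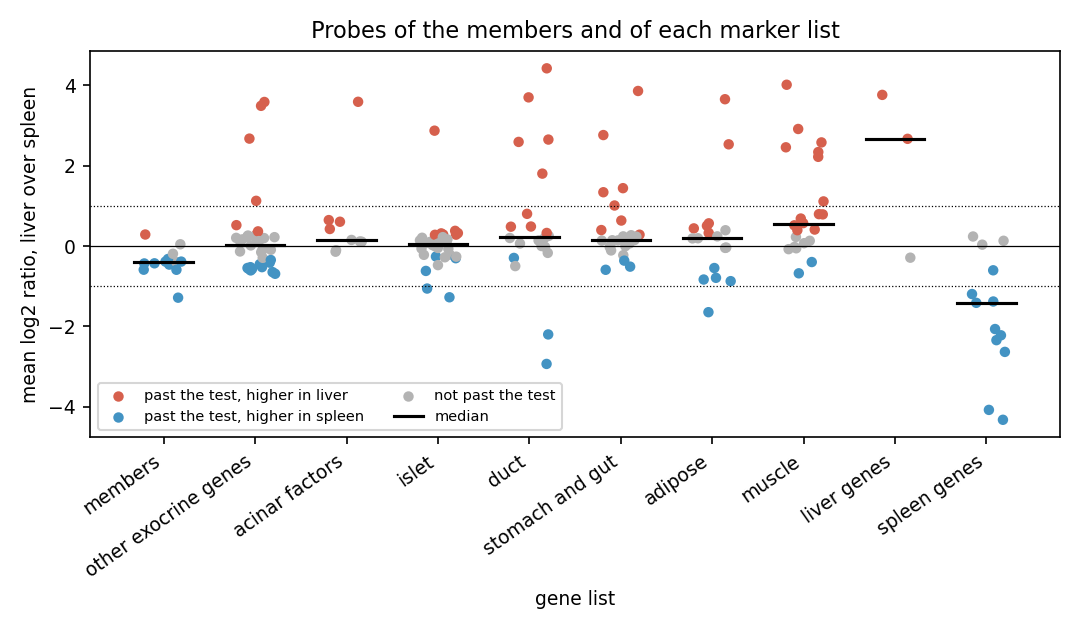
Mean log2 ratio of liver over spleen (y axis) of each probe measured on all 3 arrays, by gene list (x axis), coloured by the test, with the median as a black bar and dotted lines at 1 and -1. The members' median is -0.40, while the medians of the lists of exocrine, acinar factor, islet, duct, stomach and gut, adipose and muscle genes lie from 0.02 to 0.54.

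Islet genes were examined because islets lie within the same organ. Of 32 measured probes, 7 passed toward liver and 5 toward spleen, and the median was 0.06. The share passing either way was 37.5%, below the 50.2% of all probes tested. Insulin (Ins2) passed toward spleen on both probes. Probe 9889 read -0.60, -0.69 and -0.57 and averaged -0.62 ± 0.06 (limma adjusted p = 0.00188), and probe 12122 averaged -0.30 ± 0.09 (limma adjusted p = 0.0301). The second probe was not past the test without any 1 array, with limma adjusted p-values of 0.0822, 0.131 and 0.0708. Glucagon (Gcg) stood at 0.16 and 0.08 on its probes, somatostatin (Sst) at 0.16 and 0.10 and amylin (Iapp) at -0.28, none of them past the test. Pdx1, also in the islet list, stood at 0.22 and did not pass (limma adjusted p = 0.0770). Ins1 was not analysed here. The pancreatic polypeptide Ppy passed toward liver on both probes, at 0.32 and 0.28, but on neither without any 1 array (limma adjusted p-values from 0.0666 to 0.140). At 2-fold or more the glucose carrier Slc2a2, also of hepatocytes, passed toward liver at 2.87. Toward spleen the peptide-processing genes Cpe and Scg5 passed at -1.06 and -1.28, each on 1 of 2 probes, the other being at -0.21 for Cpe and 0.07 for Scg5.

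Duct genes gave 9 of 22 probes past the test toward liver and 3 toward spleen, with a median of 0.23. At 2-fold or more they were Ambp at 4.42, Krt8 at 3.70, Krt18 at 2.65, Onecut1 at 2.59 and Krt23 at 1.80 toward liver. Whether duct cells or hepatocytes gave these liver readings was not tested. Carbonic anhydrase Car2, also an enzyme of red cells, was at -2.20 and -2.93 toward spleen on its probes. The duct keratin Krt19 averaged -0.02 ± 0.41 and the chloride channel Cftr 0.18 ± 0.34, and neither passed. Krt7 was not analysed here. Sox9, also in the duct list, read 0.91, 0.91 and 0.59. It passed toward liver at 0.80 ± 0.18 (limma adjusted p = 0.00166). Of 25 stomach and gut probes, 8 passed toward liver and 3 toward spleen, with a median of 0.15. Of 17 adipose probes, 6 passed toward liver and 5 toward spleen, with a median of 0.19. Either way, 54.5% of the duct, 44% of the stomach and gut and 64.7% of the adipose probes passed. Of all probes tested, 50.2% did. The fat hormone adiponectin (Adipoq) read -0.77, -1.01 and -0.72, with a mean of -0.83, further toward spleen than that of each digestive enzyme probe. In the adipose list Lpl, a lipase of many tissues, was at -1.65, while Car3 and Mrap were at 3.65 and 2.53. Whether fat cells or hepatocytes gave the Car3 and Mrap readings was not tested. Retn at 0.56, Cidec at 0.50, Plin4 at 0.44 and Aqp7 at 0.33 also passed toward liver, Aqp7 not without any 1 array. Toward spleen the others were Fabp4 at -0.55 and -0.79 and Cidea at -0.87. Another Fabp4 probe stood at -0.04 and another Cidea probe at 0.24, neither past the test. Fabp4 at -0.79 was not past the test without array 2 or without array 3.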

How the data were processed

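The authors deposited 1 log2 ratio per probe and array for 16281 probes. Neither the log base nor the direction is stated. The log2 base was taken from the highest value over the 3 arrays together, 6.64, the log2 of 100. How the authors corrected background, normalized the dyes and filtered spots is not given in the sources used here. With exact zeros counted, the median of every deposited log2 column is 0. The 1414, 1098 and 1137 exact zeros on arrays 1, 2 and 3 were taken as no measurement. Of all probes, 13738 had 1 symbol in the platform annotation, 52 several and 2491 none. An Entrez number was found in RefSeq for 13694, with 0 symbols changed.

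Probes measured on all 3 arrays were fitted with an intercept in limma 3.58.1 (R 4.3.3; 3.38 prior degrees of freedom), two-sided, and checked on simulated data. The number of arrays limits the precision. Named genes were all members, list genes past the test at 2-fold or more, and the defining markers of each tissue. Members and lists were chosen with earlier results of these data known. Sycn, Gp2, Amy1, Niban1, Serpini2, Reg3b, Dnase1, Rnase1, Klk1, Gatm, Cckar, Cuzd1, Gata6, Xbp1, Atp4a, Pga5, Pgc, Myh4, Ckm, Try5, Rbpjl, Bhlha15, Ppy, Pdx1, Krt7, Krt19, Cftr, Sox9, Adipoq, Retn, Cidec, Plin4, Aqp7, Fabp4, Cidea and Cd3e were named beyond that rule.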

Additional observations from a re-analysis of the deposited data

How the results depend on the processing

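Leaving out each array in turn gave 0 member probes toward liver and 6 to 10 toward spleen. Of all 14122 probes, 2381, 2437 and 2746 passed toward liver without arrays 1, 2 and 3. Toward spleen the counts over all probes were 3038, 2939 and 3334. Other exocrine genes gave 7 to 10 toward liver and 7 to 10 toward spleen. Of the 118 pooled islet, duct, stomach and gut, adipose and muscle probes, 44 passed toward liver and 18 toward spleen with all arrays. Of all probes tested, 23.5% and 26.7% did so. Leaving out 1 array, the pooled probes gave 31 to 34 toward liver and 12 to 12 toward spleen. Averaging the probes of a gene, an adjusted p under 0.01, or centring on receptor probes (chosen after seeing the data) also left 0 member calls toward liver. Of all 14122 probes, 2174 passed toward liver at an adjusted p under 0.01 and 2459 with arrays centred on receptor probes. Toward spleen these settings gave 2572 and 4015 of all probes, and 6 and 10 member probes. Tested against a 1.5-fold change, members gave 0 toward liver and 1 toward spleen, other exocrine genes 4 and 0, and the pooled lists 19 and 4. At an adjusted p under 0.01, other exocrine genes gave 6 and 6 and the pooled lists 29 and 9. Cela2a probe 1212 took the sign of its gene average, -0.074, and Ctrb1 stood at -0.022 with arrays centred on receptor probes, where Cela3b passed the test at -0.46 and Cela2a probe 1212 did not, at 0.22. With exact zeros kept, Ctrl was not past the test. All 13 member calls stayed as they were with arrays centred on the median of measured values or scaled to the same median absolute deviation. They also stayed with a robust prior and with probes measured on at least 2 arrays. The causes were not tested. No paired analysis was possible because the arrays form 1 group. Signal over background is unknown here, since intensities were not used.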

Other observations

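Genes of skeletal and cardiac muscle were mostly higher in the liver RNA. Of 22 measured probes, 14 passed the test toward liver and 2 toward spleen, with a median of 0.54. The share passing either way was 72.7%, against 50.2% of all probes tested. The sarcomere gene Actn3 read 4.03, 4.14 and 3.87 on arrays 1, 2 and 3 on 1 probe, while its other probe read 0.51, 0.10 and -0.22. Skeletal actin (Acta1) averaged 2.91 ± 0.20, the myosin heavy chains Myh2 and Myh1 2.46 ± 0.42 and 2.34 ± 0.12, and troponin C (Tnnc2) 2.22 ± 0.44 (SD, n = 3). Myoglobin (Mb) stood at 2.58 on 1 probe and -0.08 on the other, and Tnnt3 at 1.11 and 0.39. The pair toward spleen were Myh4 at -0.68 ± 0.36 and muscle creatine kinase (Ckm) at -0.40 ± 0.13, neither past the test without array 2 (limma adjusted p = 0.0735 for Myh4 and 0.0789 for Ckm).

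Of the 25 stomach and gut probes, 14 did not pass the test. At 2-fold or more, 5 passed toward liver and 0 toward spleen, against 8.85% and 9.13% of all probes tested. Trefoil factor Tff1 averaged 1.44 ± 0.25 and the gastrokines Gkn1 and Gkn2 1.34 ± 1.12 and 1.01 ± 0.24, with Gkn1 at 2.58, 1.03 and 0.41 on the 3 arrays. Without array 2 Gkn1 missed the threshold (limma adjusted p = 0.0979). The fatty acid binding protein Fabp2 stood at 3.86 and 2.76 on its probes. Whether gut cells or hepatocytes gave the Fabp2 readings was not tested. The 3 probes past the test toward spleen were those of the proton pump chain Atp4a at -0.51 ± 0.24 and of the stomach protease precursors Pga5 at -0.59 ± 0.43 and Pgc at -0.36 ± 0.07. Another Atp4a probe stood at -0.0032 and another Pga5 probe at 0.14. Without array 1 none of the 3 was past the test (limma adjusted p = 0.0652 for Atp4a, 0.125 for Pga5 and 0.0788 for Pgc).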
